A study of Mus musculus with 18 samples.

Results

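The 10 genes described here are Fos, Fosb, Jun, Junb, Jund, Egr1, Nr4a1, Ier2, Arc and Npas4, a set of immediate early genes found by symbol among the 23420 symbols of the count tables. All 10 had enough counts to be tested, among 15196 tested genes. They were followed in whole retinas of 9 young adult wild-type (wt) BALB/cJ mice, an albino strain, in 3 groups of 3. Naïve mice received no light and no treatment. Vehicle-treated mice (vehicle mice below) were exposed to white light of 15000 lux for 1 h after dark adaptation and pupil dilation, and from the day before the light they were injected daily into the peritoneum with DMSO, the solvent of the compound. TD139-treated mice (TD139 mice below) had the same light and daily injections of TD139, a small-molecule inhibitor of galectin-3, at 15 mg/kg in DMSO. The retinas of light-exposed mice were taken 4 days after light. The light and the injections of DMSO cannot be told apart in the comparison of vehicle with naïve mice, since naïve mice had neither.

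Immediate early genes are switched on by factors that a resting cell already holds, such as SRF with its ELK partners and CREB, so that their RNA can rise within minutes of a stimulus without new protein synthesis. Their transcripts are short-lived, and in the retina several are known to respond to light, synaptic activity and injury. FOS and FOSB pair with JUN, JUNB or JUND to form the transcription factor AP-1, EGR1 is a zinc finger factor, NR4A1 is an orphan nuclear receptor, and NPAS4 is a neuronal factor that responds to calcium. IER2 is a small nuclear protein and ARC is a protein of the synapse that governs the removal of AMPA receptors. The retinas here were not sampled within those first minutes.

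Promoters of many immediate early genes carry a site for CREB, and the letters TGACG are its core. In windows of 300 bases around the RefSeq start sites (GRCm38.p6, 250 bases before the start and 50 after it), TGACG was searched on both strands, where it reads CGTCA on the other strand. Windows of 7 of the genes were used, and 5 of these held the letters at least once. Among all 32851 promoter windows, 20.8% held them at least once and 1.03% at least 3 times. The upstream bases are shown for Fos, the archetype of the set, and for Junb and Nr4a1, which each passed the test in a comparison below. Jund passed in both of these comparisons, but its window did not hold the letters and is not shown. TGACG or CGTCA is in capitals, and each strand is read 5′ to 3′ toward the gene. The Fos stretch is chr12:85473640-85473889 on the plus strand, the Junb stretch is chr8:84978749-84978998 on the minus strand, and the Nr4a1 stretch is chr15:101266596-101266845 on the plus strand.
Fos: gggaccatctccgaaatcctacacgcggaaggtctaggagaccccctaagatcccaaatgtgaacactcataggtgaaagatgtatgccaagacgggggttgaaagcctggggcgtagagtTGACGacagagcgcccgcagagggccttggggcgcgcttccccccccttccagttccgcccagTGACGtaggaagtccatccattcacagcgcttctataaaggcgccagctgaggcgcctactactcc
Junb: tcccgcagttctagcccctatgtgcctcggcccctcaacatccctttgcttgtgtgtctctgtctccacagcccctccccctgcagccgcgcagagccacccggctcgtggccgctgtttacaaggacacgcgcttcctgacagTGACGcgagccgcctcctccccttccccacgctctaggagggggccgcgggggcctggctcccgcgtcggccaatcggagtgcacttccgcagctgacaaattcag
Nr4a1: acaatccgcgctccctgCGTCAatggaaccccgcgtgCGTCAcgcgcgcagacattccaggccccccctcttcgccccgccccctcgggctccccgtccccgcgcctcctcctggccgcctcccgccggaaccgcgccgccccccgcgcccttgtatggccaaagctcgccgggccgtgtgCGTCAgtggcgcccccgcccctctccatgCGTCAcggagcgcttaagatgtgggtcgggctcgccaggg
Counted from the start site to the first base of each match, Fos held the letters at -129 and -66. Junb held them once, at -106. Nr4a1 held them 4 times, at -233, -213, -69 and -40, and this start lies 12577 bases inside the longest extent of the gene in GENCODE M21. Npas4 held them at -179 and -169, but its RefSeq start lies 345 bases inside the gene as GENCODE gives it, and this window falls within the gene there. Fosb held them at -60. The Jun and Jund windows did not hold these letters, and the RefSeq start of Jund lies 1210 bases from its start in GENCODE. The CArG box, the site of SRF, was in none of the 7 windows, against 1.63% of all windows. Bases more than 250 before the start were not searched, so this does not show that the genes lack such a site. A match is a run of letters and no evidence that a factor was bound in these retinas. Egr1, Ier2 and Arc were left out of this search.

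Between 26171887 and 30201517 reads were counted on genes in each mouse, so that 3 counts, taken as the limit of detection, stood for 0.101 to 0.119 CPM. The CPM value of a gene is its count relative to the reads of the library, after scaling by TMM factors, and levels below are in this unit. The tissue label was met by the markers of rods, whose 10 genes summed to 45659 to 89897 CPM in the 9 mice. Microglial markers (12 genes, none at 0) summed to 68.7 to 73.4 CPM in naïve, 296 to 569 CPM in vehicle and 49.7 to 185 CPM in TD139 mice. Reactive glia markers (9 genes, none at 0) summed to 337 to 513, 1392 to 2301 and 299 to 674 CPM in the same order. Whole retinas were sequenced, so fewer cells of a type and less RNA per cell cannot be told apart.

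Divided by the length of the longest transcript, the levels of the 10 genes covered a wide range and every gene was detected in every mouse. Jund stood first with a mean of 111 CPM per kb over the 9 mice, above 97.2% of the tested genes. Its lowest mouse, at 73.0 CPM per kb, was above the highest mouse of any other gene of the set, which was Junb at 41.9. Junb (mean 22.4 CPM per kb), Ier2 (21.1), Jun (16.5), Nr4a1 (15.4), Fos (11.5) and Egr1 (10.4) followed, and the mice of each of these genes overlapped with those of the next. Npas4 (2.07 CPM per kb), Fosb (0.956) and Arc (0.678) were the lowest, and their mice lay below all mice of the other 7 genes. Arc was above only 13.7% of the tested genes, and with 45 to 85 counts per mouse it had the fewest counts of the set.

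**Figure D1:**
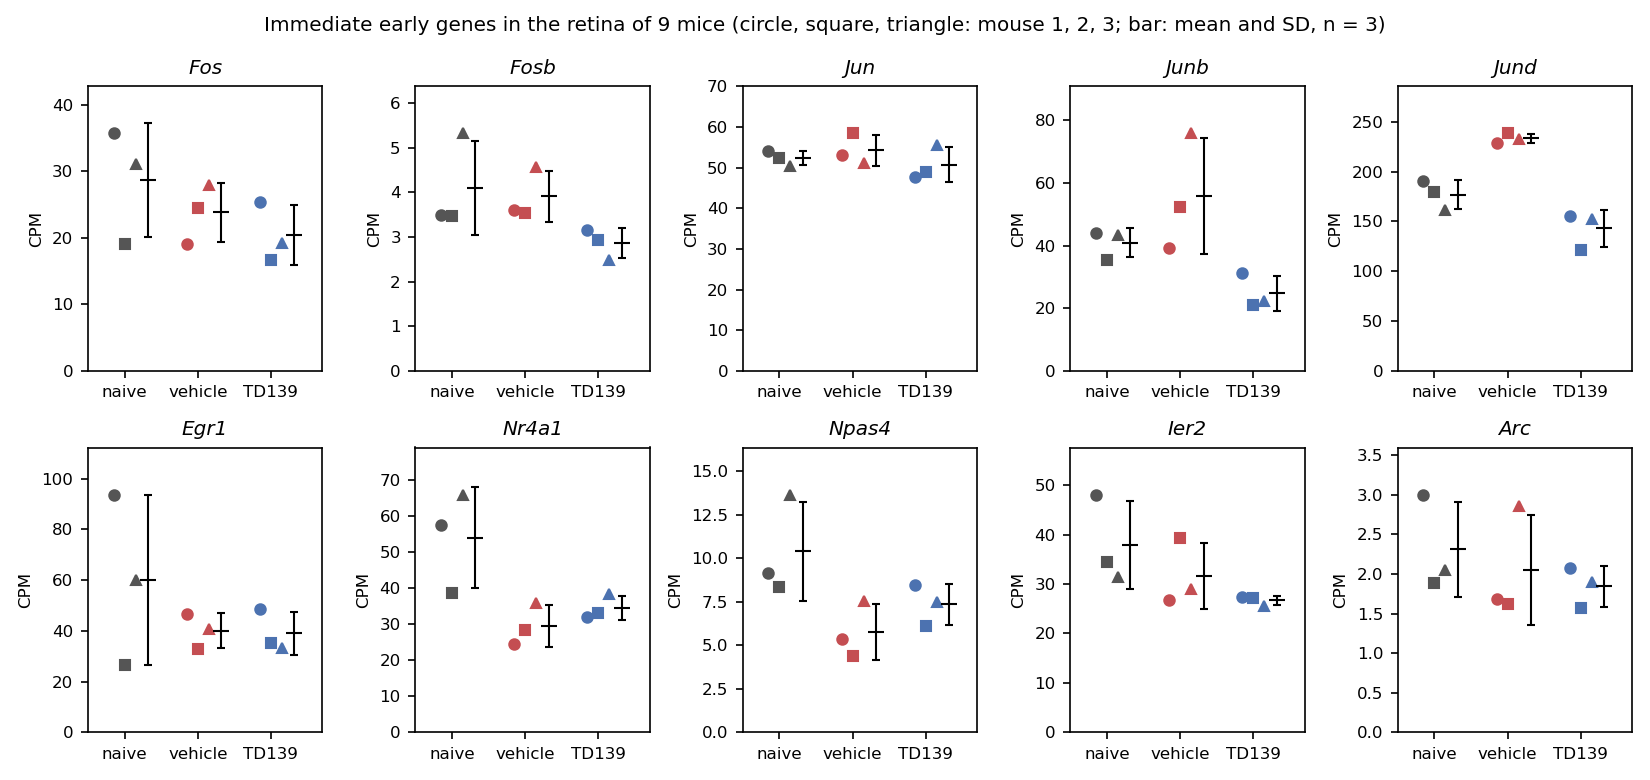
CPM (vertical axes, each starting at 0) of the 10 immediate early genes in the 3 naïve, 3 vehicle and 3 TD139 mice, with a symbol for each mouse and a bar for the mean and SD. Jund is separated in all 3 groups, TD139 mice are lowest for Junb, the mean of naïve mice is the highest for Nr4a1 and Npas4, and the 3 means of Jun lie between 50.8 and 54.3 CPM.

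The comparison of vehicle with naïve mice asks which of these genes stood at another level 4 days after light. Of the 10 genes, 1 was higher and 1 was lower at an adjusted p-value under 0.05, where 7.80% of all tested genes were called, 4.91% higher and 2.89% lower. Jund rose and Nr4a1 fell, while Fos, Fosb, Jun, Junb, Egr1, Ier2, Arc and Npas4 did not pass the test. The median over the 10 log2 fold changes was −0.21, beside −0.00175 over all tested genes, with 3 positive and 7 negative values. With limma voom the median was 0.06, and it was −0.05 without naïve mouse 1 and −0.08 without vehicle mouse 1. The groups did not overlap for 3 of the 10 genes, and such genes were 33.3% of all tested genes (16.7% higher and 16.6% lower).

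Nr4a1 (chr15:101254269-101274795, plus strand, 8 exons) codes for a nuclear receptor that restrains inflammatory genes in myeloid cells and responds within minutes to many stimuli. It was at 57.6, 38.7 and 65.9 CPM in the 3 naïve mice and at 24.5, 28.4 and 35.8 CPM in the vehicle mice. Every vehicle mouse was below every naïve mouse, although the highest vehicle and the lowest naïve mouse were close. The level was 1.83-fold lower after light (log2 fold change −0.87, SE 0.19, adjusted p = 0.0285). In TD139 mice it was at 32.1, 33.1 and 38.5 CPM, within or slightly above the vehicle range. TD139 and vehicle mice differed by 0.23 on the log2 scale (95% interval −0.20 to 0.65, adjusted p = 0.383), and the highest TD139 mouse was just below the lowest naïve mouse (log2 fold change −0.65, adjusted p = 0.0661). The counts of both sequencing runs of a mouse differed beyond counting error in 1 of 90 gene and mouse pairs after adjustment by an exact binomial test, and this was Nr4a1 in vehicle mouse 2 (450 and 353 counts, adjusted p = 0.000883). Without adjustment, 17 of the 90 pairs had a p-value under 0.05.

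Npas4 (chr19:4984355-4990316, minus strand, 6 exons), the calcium-driven factor of neurons, had a similar order of groups at a lower level. It was at 9.18, 8.37 and 13.6 CPM in naïve mice, at 5.36, 4.38 and 7.56 CPM in vehicle mice and at 8.45, 6.09 and 7.51 CPM in TD139 mice. Naïve and vehicle mice did not overlap, and TD139 mice overlapped with both. The difference after light was −0.85 on the log2 scale (SE 0.25) and just missed the threshold (adjusted p = 0.0601). TD139 mice differed from vehicle mice by 0.35 (95% interval −0.20 to 0.90, adjusted p = 0.295). Across the 9 mice the log2 levels of Npas4 and Nr4a1 had the highest correlation among pairs of the set (Pearson r = 0.87), and with the group means removed it was 0.67. These are descriptions, since both genes share the libraries and the groups.

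Jund (chr8:70698949-70700616, plus strand, 1 exon) codes for the AP-1 partner that is least inducible and most constant in resting cells. Its levels were 190, 179 and 162 CPM in naïve mice and 229, 238 and 233 CPM in vehicle mice. The vehicle mice were tightly grouped and all above the naïve mice. The level was 1.32-fold higher after light (log2 fold change 0.40, SE 0.11, adjusted p = 0.0456). Both calls of this comparison rest on all mice. Without any one of the 6 naïve or vehicle mice, none of the 10 genes was called by edgeR, while the share called over all tested genes was 0.00647 to 6.35% in these 6 fits. The adjusted p-values were up to 0.120 for Jund and up to 0.0933 for Nr4a1. The log2 fold change stayed between 0.34 and 0.47 for Jund and between −1.05 and −0.70 for Nr4a1 when each of the 9 mice was left out. Without TD139 mouse 3, Nr4a1 alone was called, and without TD139 mouse 1 the count was 3, where 5.84 and 12.8% of all tested genes were called. The call of Nr4a1 was also lost with limma voom (log2 fold change −0.59, adjusted p = 0.0512) and that of Jund in sequencing run 1 alone (0.41, adjusted p = 0.0554). Npas4 was called with DESeq2 (−0.85, adjusted p = 0.0152), limma voom (−0.69, adjusted p = 0.0321), the offset for transcript length and GC content (−0.87, adjusted p = 0.0369), run 2 alone (−0.92, adjusted p = 0.0324) and without TD139 mouse 1 (−0.84, adjusted p = 0.0487).

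The other 7 genes did not pass the test after light. Junb was at 43.9, 35.5 and 43.3 CPM in naïve mice and at 39.3, 52.5 and 75.8 CPM in vehicle mice, and the groups overlapped (log2 fold change 0.45, adjusted p = 0.235). Without vehicle mouse 3 its log2 fold change was 0.16. Fos was at 35.7, 19.1 and 31.2 CPM in naïve mice and at 19.1, 24.5 and 28.0 CPM in vehicle mice (log2 fold change −0.26, 95% interval −0.79 to 0.27, adjusted p = 0.501). This interval leaves room for a moderate fall of Fos but only for a small rise. The narrowest interval was that of Jun, at −0.16 to 0.26 on the log2 scale, with 54.1, 52.5 and 50.5 CPM in naïve mice and 53.2, 58.4 and 51.1 CPM in vehicle mice. Egr1 had the widest, at −1.52 to 0.36, and Fosb, Ier2 and Arc had log2 fold changes of −0.07, −0.26 and −0.17 with overlapping groups.

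**Figure D2:**
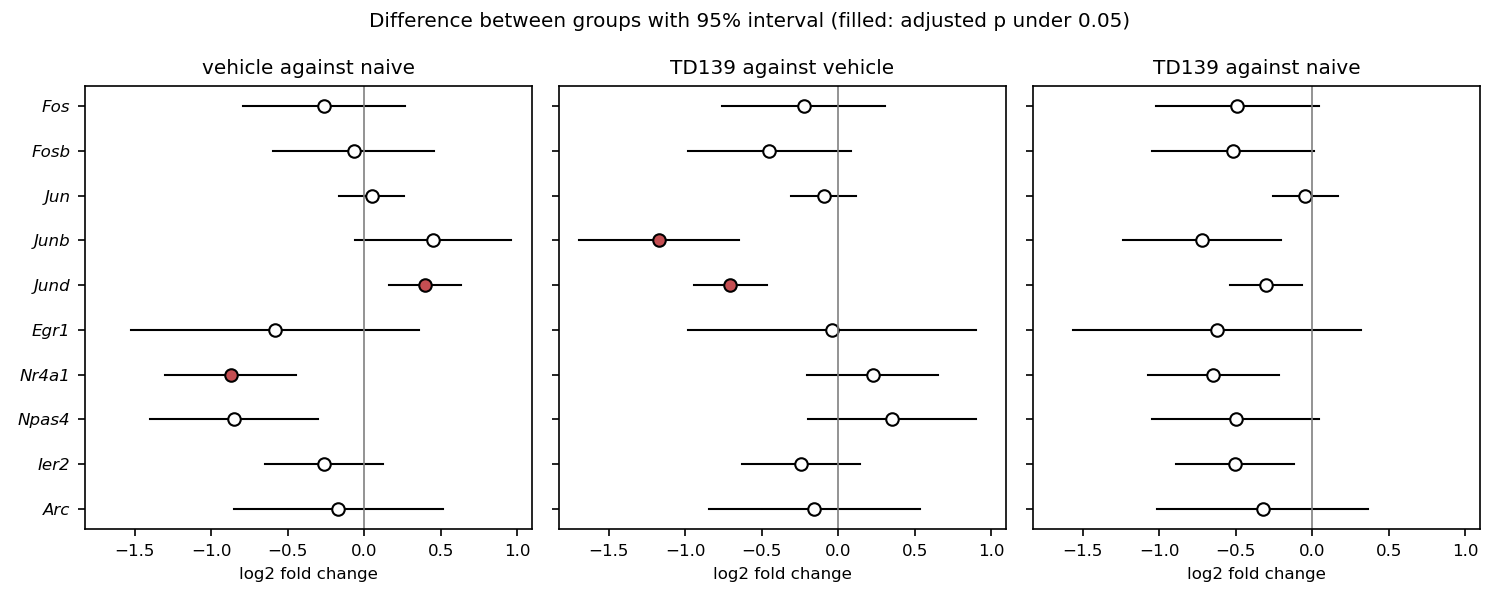
Log2 fold change (horizontal axes) of each of the 10 genes with its 95% interval from the edgeR fit, for the 3 comparisons, with filled points at an adjusted p-value under 0.05. Jund and Nr4a1 are filled for vehicle against naïve mice, Junb and Jund for TD139 against vehicle mice, and none for TD139 against naïve mice, where all 10 points lie below 0.

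The comparison of TD139 with vehicle mice asks how inhibition of galectin-3 altered the light-exposed retina. It uses the same vehicle mice as the comparison above, so the values of both are not independent. Of the 10 genes, 2 were lower and 0 higher, in a comparison in which 33.4% of all tested genes were called (17.2% higher and 16.2% lower). Calls were thus no more frequent among the immediate early genes than among all genes. Both called genes were of the JUN family, Junb and Jund, and Jun itself did not pass the test. The median log2 fold change was −0.19, beside −0.0164 over all tested genes, with 2 positive and 8 negative values, and the groups did not overlap for 3 genes against 51.5% of all tested genes (26.0% higher and 25.4% lower). With the offset for transcript length and GC content the median turned to 0.07, and it lay between −0.32 without vehicle mouse 1 and −0.08 without TD139 mouse 2 when a mouse was left out.

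Junb (chr8:84974484-84978718, minus strand, 1 exon) codes for an AP-1 subunit that is induced with Fos and can act in place of or against JUN. In TD139 mice it was at 31.1, 20.9 and 22.3 CPM, all below the lowest vehicle mouse, at 39.3 CPM, and also below the lowest naïve mouse, at 35.5 CPM. Group means were 40.9 ± 4.68 CPM (SD, n = 3) in naïve, 55.8 ± 18.5 in vehicle and 24.8 ± 5.54 in TD139 mice. Junb was 2.25-fold lower in TD139 than in vehicle mice (log2 fold change −1.17, SE 0.23, adjusted p = 0.00756). Vehicle mouse 3 had the highest value, and without it the log2 fold change was −0.89 and the gene was still called.

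Jund was at 156, 122 and 152 CPM in TD139 mice, against 229 to 238 CPM in vehicle mice. The 3 TD139 mice were also below the lowest naïve mouse, at 162 CPM. Jund was 1.63-fold lower in TD139 than in vehicle mice (log2 fold change −0.70, SE 0.11, adjusted p = 0.00500). Junb and Jund were both called under each of the 20 other ways of processing, leaving out each mouse included. The size was smaller with an offset for transcript length and GC content, at −0.72 for Junb (adjusted p = 0.0433) and −0.29 for Jund (adjusted p = 0.0210). Both are short transcripts of 1 exon with high GC content, 1809 bases and 62.6% for Junb and 1668 bases and 67.1% for Jund. Reads outside genes were 21.3 to 22.8% in TD139 mice and 16.5 to 19.4% in vehicle mice, and reads ambiguous between genes were 0.303 to 0.363% and 0.417 to 0.471%, with no overlap in either. The part of these differences between libraries in the results was not tested.

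The third gene of the family, Jun (chr4:95049034-95052222, minus strand, 1 exon), was at 47.8, 48.9 and 55.6 CPM in TD139 mice, so that 2 mice were slightly below all mice of the other groups. Its log2 fold change against vehicle mice was −0.10 (95% interval −0.31 to 0.12, adjusted p = 0.460). As a share of the 3 family members per kb of transcript, Jun made up 11.3 ± 0.356% (SD, n = 3) in naïve, 9.08 ± 0.845% in vehicle and 13.9 ± 1.75% in TD139 mice. Junb made up 15.6 ± 1.93%, 16.3 ± 4.50% and 11.8 ± 1.78% in the same order, and Jund 73.1 ± 2.02%, 74.7 ± 3.73% and 74.3 ± 1.17%. The mean shares of Jund differed between groups by less than the SD of the naïve mice, and the Jun share of every TD139 mouse was above that of every vehicle mouse. These shares were not tested.

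The remaining genes did not pass the test of TD139 against vehicle mice. Fos (chr12:85473890-85477273, plus strand, 4 exons) was at 25.4, 16.6 and 19.2 CPM in TD139 mice, overlapping with vehicle mice (log2 fold change −0.23, adjusted p = 0.486). Fosb (chr7:19302696-19310051, minus strand, 4 exons), its closest relative, was at 3.61, 3.53 and 4.57 CPM in vehicle and at 3.15, 2.92 and 2.49 CPM in TD139 mice. Its groups did not overlap, with 63 to 136 counts per mouse, but the log2 fold change of −0.45 did not pass (SE 0.24, adjusted p = 0.164). Ier2 (chr8:84661331-84662852, minus strand, 1 exon) was at 26.7, 39.2 and 28.9 CPM in vehicle and at 27.3, 27.2 and 25.6 CPM in TD139 mice (log2 fold change −0.25, adjusted p = 0.294). Egr1 and Arc had log2 fold changes of −0.04 (95% interval −0.98 to 0.90) and −0.16 (−0.84 to 0.53), and these wide intervals do not show that either was unaltered.

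**Figure D3:**
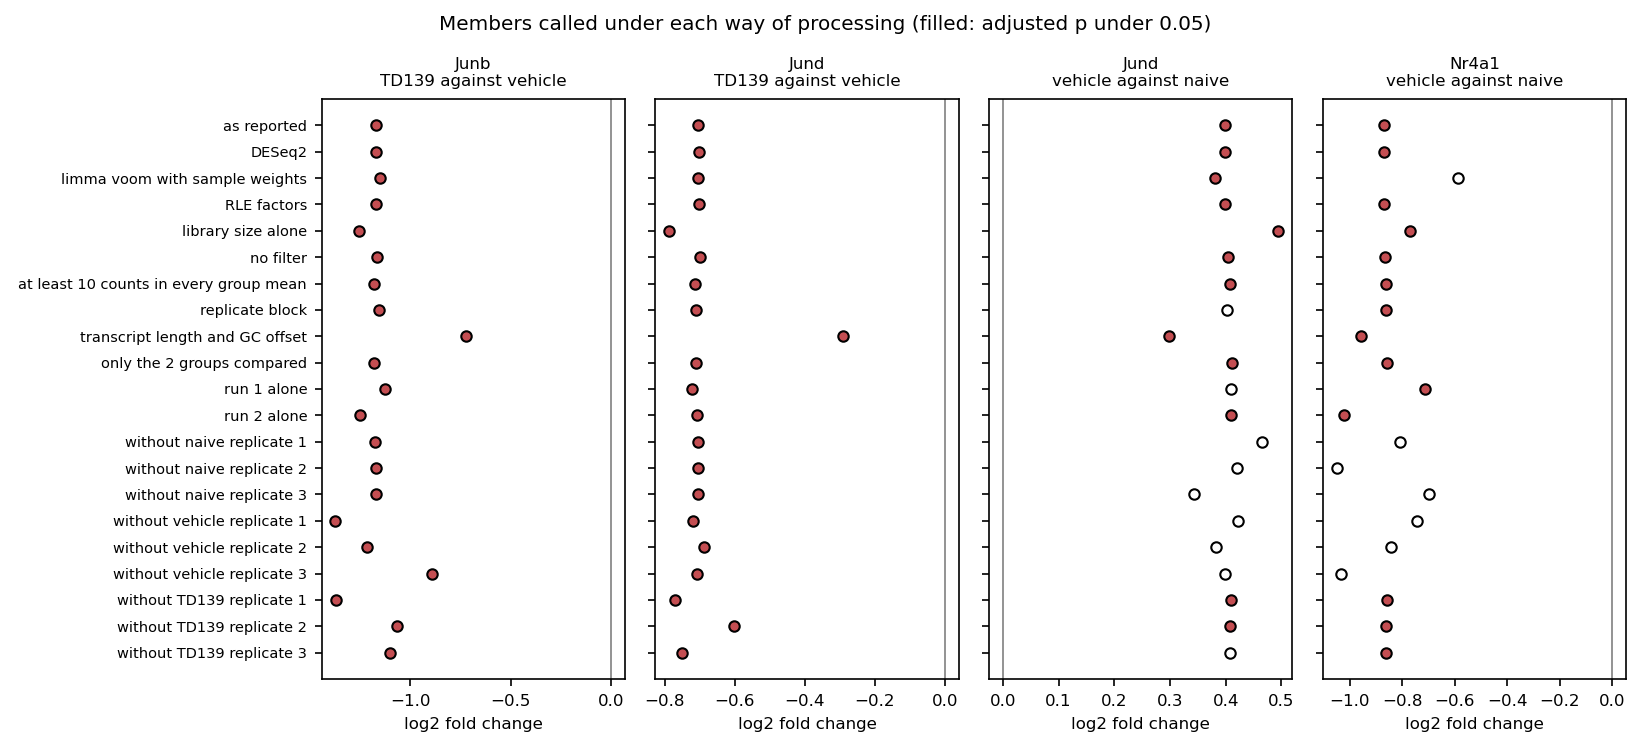
Log2 fold change (horizontal axes) of the 4 calls under the reported fit and 20 other ways of processing, with filled points at an adjusted p-value under 0.05. Junb and Jund are filled in every row for TD139 against vehicle mice, while Jund and Nr4a1 lose their calls for vehicle against naïve mice in all 6 rows that leave out a naïve or vehicle mouse.

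TD139 mice were also set against naïve mice, with which they share neither light nor injections. By edgeR, 0 of the 10 genes were called, where 5.10% of all tested genes were (2.72% higher and 2.38% lower), and 4 had an unadjusted p-value under 0.05. With DESeq2 the count was 4 (Nr4a1, Jund, Ier2 and Junb) and with limma voom it was 3 (Jund, Ier2 and Junb), where these tools called 17.3% and 36% of all tested genes. The share by edgeR was itself unsteady. It was 0 with the offset for transcript length and GC content and without naïve mouse 1 or 2, vehicle mouse 2 or TD139 mouse 2 or 3. It was 0.00676% with only these groups in the fit, and 17.4% without naïve mouse 3. All 10 log2 fold changes were negative, from −0.72 for Junb to −0.04 for Jun, with a median of −0.50 beside −0.00227 over all tested genes. The median was −0.28 with limma voom and −0.29 without naïve mouse 1. The sign of Jun and Jund turned with the offset for transcript length and GC content, that of Egr1 with limma voom, that of Arc in run 1 alone and that of Jun without TD139 mouse 1. The groups did not overlap for 5 of the 10 genes, namely Fosb, Junb, Jund, Nr4a1 and Ier2, and such genes were 32.2% of all tested genes (15.3% higher and 16.8% lower). Ier2 was at 48.0, 34.4 and 31.4 CPM in naïve mice, all above the TD139 mice (log2 fold change −0.51, SE 0.18, adjusted p = 0.0913).

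The genes differed in how far the mice of a group lay apart. Egr1, a factor that follows neuronal activity closely, was at 93.6, 26.5 and 60.3 CPM in the 3 naïve mice, so that the highest was 3.53 times the lowest. It was in vehicle mice at 46.8, 32.9 and 40.7 CPM and in TD139 mice at 48.6, 35.1 and 33.3 CPM, with ratios of 1.42 and 1.46. The naïve range thus enclosed all 6 light-exposed mice. The median ratio between both runs of a mouse was 1.05 for Egr1, far below the ratio between naïve mice. In the edgeR fit Egr1 had a biological coefficient of variation of 34.2%, above that of 89.6% of the tested genes, where the median was 15.7%.

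Arc (28.2%), Npas4 (24.3%), Fosb (23.6%), Fos (21.9%) and Junb (20.5%) followed, and Nr4a1 (17.8%) and Ier2 (16.8%) were near the median. Jund (11.3%) and Jun (10.4%) were the steadiest, the latter with a lower coefficient than all but 9.62% of the tested genes. For Arc, the median ratio between runs of a mouse was 1.30, close to the ratio of 1.33 between TD139 mice. Fos ranged over 1.86 times among naïve mice, with naïve mouse 2 lowest, the mouse that was also the lowest of its group for Fosb, Junb, Egr1, Nr4a1, Npas4 and Arc. With group means removed, Fos correlated with Junb (r = 0.81), Egr1 (0.75), Arc (0.74) and Nr4a1 (0.72) over the 9 mice, and with Jun at −0.11. Fosb and Npas4 had r = 0.81. These correlations are descriptions over 9 mice that share library preparation and depth.

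**Figure D4:**
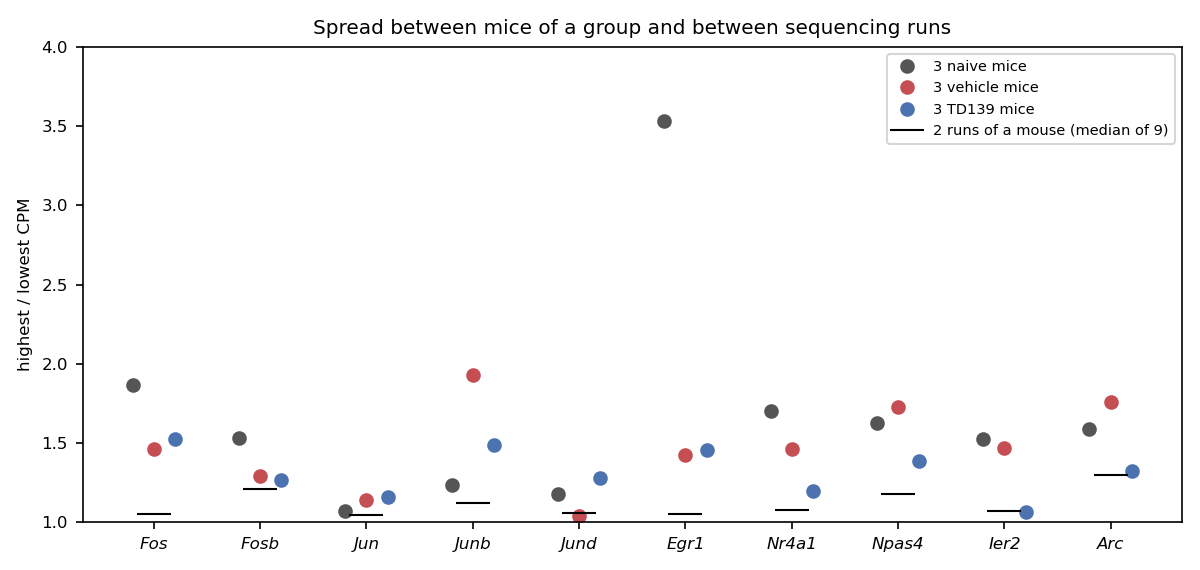
Highest divided by lowest CPM among the 3 mice of each group (points) for each of the 10 genes, with a line at the median ratio between both sequencing runs of a mouse. The naïve mice of Egr1 stand out at 3.53, while Jun stays between 1.07 and 1.16 in the 3 groups.

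Over the 9 mice, the genes whose log2 CPM was most like that of Fos among 13083 genes with sufficient counts were Rfc5 (r = 0.96), Qpctl (0.95), Nupl2 (0.95), Mrpl47 (0.94) and Trpc7 (0.93). None of these is an immediate early gene. For Jun they were Actc1 (0.91), Ube2d1 (0.89), Crybb3 (0.88), Wnt7b (0.87) and Wdr6 (0.87). With only 9 mice and so many genes searched, no relation is read from these values.

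Other immediate early genes were set beside the 10, in a list of 22 factors and one of 19 effectors, of which 40 genes were tested. Egr3 had at most 18 counts in a mouse and was not tested. After light, 4 of the 21 tested factors rose and 0 fell (7.80% of all tested genes were called in this comparison), with a median log2 fold change of 0.46. The 4 were Fosl1, Maff, Myc and Cebpb, which encode a FOS relative, a small MAF protein, a growth factor-responsive activator and a factor of the acute-phase response. Fosl1 had 2, 2 and 19 counts in naïve mice, 86, 34 and 182 in vehicle mice and 5, 4 and 4 in TD139 mice, so that 2 naïve mice were below the limit of 3 counts and the TD139 mice just above it. Its log2 fold change was 3.58 after light (SE 0.80, adjusted p = 0.0297) and −4.39 in TD139 against vehicle mice (SE 0.86, adjusted p = 0.00710). Fosl1 had enough counts to be tested only through its vehicle mice, so its direction was not open. After light it was not among the called genes with a filter of at least 10 counts in every group mean.

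In TD139 against vehicle mice, 9 of the 21 factors were lower and 0 higher, where 33.4% of all tested genes were called, with a median of −0.42. Maff was at 0.884, 0.791 and 2.38 CPM in naïve, 4.86, 3.46 and 6.72 CPM in vehicle and 1.56, 0.974 and 1.26 CPM in TD139 mice. Cebpd, another acute-phase factor, was at 8.80, 11.2 and 23.0 CPM, then 59.0, 61.0 and 156 CPM, then 17.9, 5.05 and 8.22 CPM. For both genes the vehicle mice were above all others. Maff changed by 1.88 and −1.98 on the log2 scale in the respective comparisons (adjusted p = 0.0286 and 0.00848). Cebpd differed by 2.68 after light without passing (adjusted p = 0.0584) and fell by 3.15 with TD139 (adjusted p = 0.0156).

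Egr2, a relative of Egr1, had 10, 0 and 10 counts in naïve mice, 56, 36 and 65 in vehicle mice and 15, 2 and 0 in TD139 mice. It was lower in TD139 than in vehicle mice (log2 fold change −3.09, SE 0.98, adjusted p = 0.0356), while the difference after light did not pass (2.84, adjusted p = 0.0921). Like Fosl1, Egr2 had enough counts to be tested only through its vehicle mice. The direction of both was thus not open, and both are counted among the factors lower with TD139. The other factors lower with TD139 were Cebpb, Myc, Csrnp1, Klf10 and Ier5. The most abundant factors of the list, Btg2 and Ier3, both inhibitors of growth or death signals, did not pass in either comparison. Fosl2, named after its values were seen as the remaining FOS relative, differed by 1.02 after light (adjusted p = 0.0800) and −0.80 with TD139 (adjusted p = 0.0824).

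Among the 19 effectors, 2 rose and 1 fell after light, and 1 was higher and 4 lower with TD139, with medians of 0.08 and −0.16. Over all tested genes, 7.80% were called after light and 33.4% with TD139, 17.2% higher and 16.2% lower. Gadd45b, a stress sensor, was at 9.76, 10.3 and 11.9 CPM in naïve, 21.5, 18.9 and 39.4 CPM in vehicle and 11.6, 6.12 and 5.30 CPM in TD139 mice. Cyr61, a secreted matrix protein, was at 3.84, 3.88 and 5.72 CPM, then 6.94, 9.71 and 13.9 CPM, then 2.97, 2.68 and 3.16 CPM. In both genes the vehicle mice were the highest and did not overlap with either of the other groups. Their log2 fold changes were 1.32 and 1.18 after light (adjusted p = 0.0432 and 0.0269) and −1.80 and −1.79 with TD139 (adjusted p = 0.00693 and 0.00500). Arl4d, a small GTPase, was the effector that fell after light, from 224 ± 31.8 to 117 ± 30.9 CPM (SD, n = 3, log2 fold change −0.93, adjusted p = 0.0273 in edgeR). Sgk1, a kinase induced by serum and glucocorticoids, was the effector higher with TD139, at 240, 346 and 203 CPM in vehicle and 311, 530 and 395 CPM in TD139 mice, which overlapped (log2 fold change 0.65, adjusted p = 0.0443). It was at 452, 425 and 404 CPM in naïve mice, all above the vehicle mice, without passing after light (−0.70, adjusted p = 0.0755). Gadd45g, a relative of Gadd45b, was at 26.2 ± 5.06 CPM in vehicle mice and 15.3 ± 1.15 CPM in TD139 mice and was lower with TD139 (−0.78, adjusted p = 0.00682). Scg2, a granin of secretory vesicles and the most abundant effector, did not pass after light (−0.17) or with TD139 (−0.12). By edgeR, 7 of the 40 other immediate early genes were called after light, and the count fell to 0 without naïve mouse 1, naïve mouse 2 or vehicle mouse 3, where 0.591, 0.00647 and 0.547% of all tested genes were called. With TD139 the count of 14 fell to 7 without TD139 mouse 2 or 3 and to 8 without vehicle mouse 3, where 10.5, 12.4 and 16.4% of all tested genes were called.

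**Figure D5:**
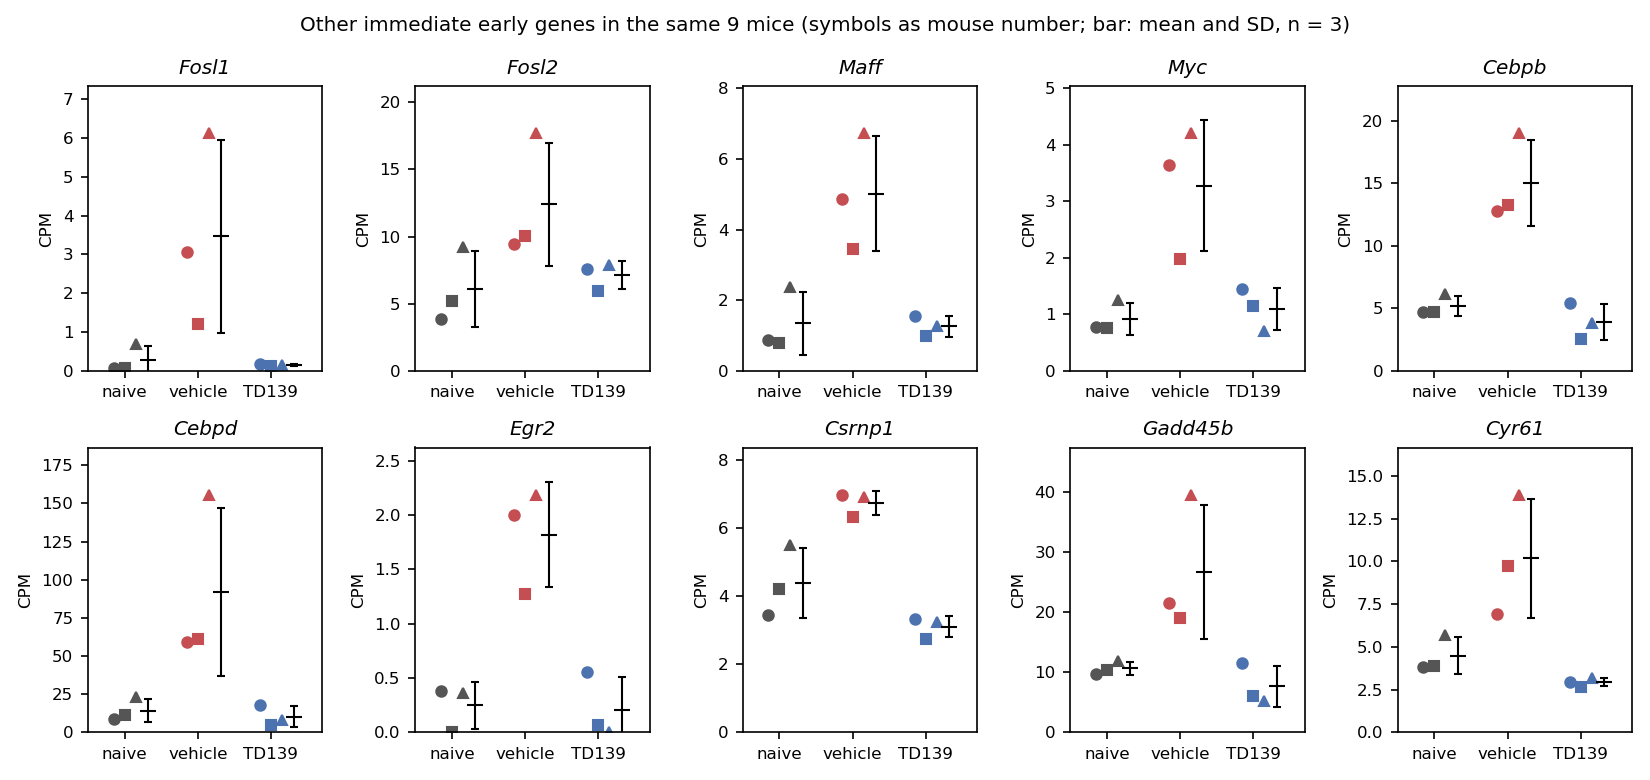
CPM (vertical axes, each starting at 0) of 10 other immediate early genes in the same 9 mice, with a symbol for each mouse and a bar for the mean and SD. The panels were chosen after the values were seen, and in each the mean of the vehicle mice is the highest of the 3 groups, unlike that of Arl4d, Sgk1, Scg2, Btg2 and Ier3, which are not shown.

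In TD139 against naïve mice, edgeR called 0 of the 40 other immediate early genes, 6 had an unadjusted p-value under 0.05, DESeq2 called 0 and limma voom called 6, where 5.10, 17.3 and 36% of all tested genes were called by these tools. Fosl1, Maff, Cebpd, Egr2, Gadd45b, Gadd45g and Cyr61 had their highest mean in the same group as the summed markers of microglia and reactive glia. These genes were named for called changes and all were lower with TD139, so this match was largely given by the choice. Of the microglial markers 6 of 12 were called higher after light and 9 of 12 lower with TD139, and of reactive glia 5 of 9 and 7 of 9. Arl4d, Sgk1, Scg2, Btg2 and Ier3 had their highest mean in naïve mice. The part of these markers in these results was not tested. Over all tested genes, 4.91% were called higher and 2.89% lower after light, and these shares stand beside all marker counts given here. The same marker values stand beside Junb and Jund, which were also highest in vehicle mice by their means. Markers of pigment epithelium (6 genes, 1 at 0 in some mice) summed to 75.5 to 176 CPM in naïve, 171 to 329 CPM in vehicle and 82.1 to 127 CPM in TD139 mice, with 2 of 5 tested genes called lower with TD139. Those of Müller glia (7 genes) summed to 4150 to 4785, 5356 to 5960 and 4809 to 5637 CPM, with 3 of 7 called higher after light. Those of endothelium (6 genes) summed to 175 to 260, 332 to 475 and 225 to 459 CPM, with 2 of 6 called lower with TD139. The part of these 3 lists was not tested. None of the tested markers of cones, bipolar, amacrine or ganglion cells was called after light by edgeR (1, 2, 3 and 0 of them had an unadjusted p-value under 0.05). With TD139, 3 of 6 bipolar markers were higher and 1 was lower, while 1 of 7 amacrine, 1 of 8 ganglion and 0 of 6 cone markers were lower. In the comparison of TD139 with vehicle mice, 17.2% of all tested genes were called higher and 16.2% lower. The markers of rods moved the other way, with 8 of 10 called lower after light and 5 of 10 higher with TD139, so their sums, like the means of Nr4a1 and Npas4, were lowest in vehicle mice. Their part in those results was not tested.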

How the data were processed

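Whole-retina poly(A) RNA of 9 mice was sequenced in single reads on 2 flow cells (18 tables). The authors counted reads per gene with BaseSpace RNA Express and deposited whole-number counts without scaling, although the statement on data in the paper names normalized counts. The build per the labels was mm10, and the annotation and strand setting of the counting are not given in the sources used here, so reads of overlapping genes on opposite strands may not be told apart. Reads outside genes (no feature) were 16.5 to 19.9% in the naïve and vehicle groups and 21.3 to 22.8% with TD139. Ambiguous reads were 0.303 to 0.471%, and both were left out.

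The members and lists were chosen with earlier results of these data known. Groups came from the labels. Summed counts of both runs made 1 replicate for each mouse, and the labels give separate mice. The 3 groups were fitted together with edgeR 4.0.16 in R 4.3.3 (filterByExpr, TMM, robust quasi-likelihood test, Benjamini-Hochberg adjustment over 15196 genes), and a gene was called at an adjusted p-value under 0.05. Floors of 3 counts cover counting error only, whereas the 95% intervals of fold changes come from the fit and include the spread between mice. Log2 CPM for correlations used a prior count of 1 and genes averaging 50 counts or more. The alternatives were DESeq2 1.42.0, limma 3.58.1 (voom with sample weights), RLE factors, library size alone, 2 other filters, the replicate number as a block, an offset for transcript length and GC content (splines with 4 degrees of freedom), only the groups compared, single runs and each mouse left out. Lengths and positions are those of GENCODE M21 (GRCm38), joined for 21777 symbols directly and 1278 by older symbols. The members were named throughout, and in each list up to 4 genes with the largest called changes and the 2 with the highest mean counts, except that marker lists are given as sums and counts. Beyond this rule, some but not all genes behind a count of 5 or fewer were named, and others as stated. The fits were tested on simulated data.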

Additional observations from a re-analysis of the deposited data

How the results depend on the processing

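With 3 mice per group, leaving out 1 mouse could end a call, though not those of Junb and Jund with TD139 against vehicle. For vehicle-treated against naïve mice, the count of called genes among the 10 was 2, against 1 in run 1 alone, 3 with DESeq2, with the offset for length and GC content and in run 2 alone, and 0 to 3 when each mouse was left out. For TD139-treated against naïve mice it was 0, against 4 with DESeq2, 3 with limma voom, 1 in run 2 alone and 0 to 1 when each mouse was left out. The shares of all tested genes called were 5.1, 17.3, 36, 5.94 and 0 to 17.4% in this order. For TD139-treated against vehicle-treated mice the count among the 10 was 2 under all 20 alternatives, where 10.5 to 46.2% of all tested genes were called. Of the other immediate early genes, 7 were called after light, against 14 with DESeq2, 15 with limma voom, 11 with the offset for length and GC content, 4 in run 1 alone and 0 to 11 when each mouse was left out. Over all tested genes the share called after light was likewise 7.8%, against 15.9% with DESeq2, 22.5% with limma voom and 13.2% with the offset. It was 6.79% in run 1 alone, 7.11% in run 2 alone and 0.00647 to 12.8% when each mouse was left out. With TD139 against vehicle, 14 of the other immediate early genes were called, against 22 with limma voom and 7 to 16 when each mouse was left out. The shares of all tested genes were 33.4, 46.2 and 10.5 to 38.4%. With TD139 against naïve mice the counts were 0, 6 with limma voom and 0 to 1, beside 5.1, 36 and 0 to 17.4% of all tested genes. The cause of these shifts was not tested, except that single runs and left-out mice hold less data.

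Signs reversed only for fold changes that the reported fit did not call in that comparison. After light, limma voom gave log2 fold changes of 0.085 for Fos, 0.075 for Fosb and 0.30 for Egr1, and Fosb was at 0.031 with library size alone and 0.0079 in run 2 alone. Leaving out mice gave ranges of −0.20 to 0.17 for Fosb, −0.0067 to 0.091 for Jun and −0.48 to 0.074 for Arc. With TD139 against vehicle, the offset for length and GC content gave 0.066 for Fos, 0.078 for Jun, 0.27 for Ier2 and 0.075 for Arc. Egr1 was at 0.047 in run 2 alone and Arc at 0.18 in run 1 alone, and leaving out mice gave −0.23 to 0.085 for Egr1 and −0.30 to 0.16 for Arc. With TD139 against naïve, the offset gave 0.10 for Jun and 0.0074 for Jund, limma voom 0.12 for Egr1, and run 1 alone 0.10 for Arc, with −0.10 to 0.0059 for Jun when each mouse was left out.

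The replicate numbers did not pair the mice: same-numbered mice of different groups had correlations of −0.261 to 0.286 (9 pairs) and others −0.275 to 0.218 (18 pairs). With the replicate block, the called genes were again 2 after light, now Nr4a1 and Npas4 (adjusted p = 0.0398) without Jund (0.40, adjusted p = 0.0601), and 2 with TD139 against vehicle, Junb and Jund. The block called 5.92% of all tested genes after light, 31.4% with TD139 against vehicle and 0% with TD139 against naïve. Scaling by library size alone gave a median of all genes of −0.102 with TD139 against vehicle, where it was −0.0164 as reported, and moved the share of calls that were higher from 51.6% to 39% there, from 63% to 77.6% after light and from 53.3% to 65.4% for TD139 against naïve.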

Other observations

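Genes around the immediate early programme were read from lists of 15 feedback genes, 17 upstream factors, 20 upstream kinases and 7 tested AP-1 partners. After light, Dusp6, a phosphatase of ERK, rose by 0.68 on the log2 scale and Zfp36l1, a protein that speeds the decay of AU-rich messages, by 0.76 (edgeR adjusted p = 0.0358 and 0.0232), and these were the 2 called feedback genes. Over all tested genes 7.80% were called in that comparison. With TD139 against vehicle, 3 feedback genes were higher and 3 lower, beside 17.2% higher and 16.2% lower over all tested genes. Dusp4, another phosphatase of this class, was at 40.3 ± 4.01 CPM (SD, n = 3) in TD139-treated mice (log2 fold change 1.01). Spred2, a brake on RAS signalling, differed by 0.96, and Spry1, of the related Sprouty family, fell by 0.81. Zfp36l2 and Spry2, the most abundant feedback genes, did not pass, with 0.50 and 0.41. Spred1 was the 1 gene of these lists called between TD139-treated and naïve mice (log2 fold change 1.02, adjusted p = 0.0484). This comparison had 0 calls among all genes with the offset for length and GC content, with the replicate block and in 5 of the 9 fits that left out a mouse.

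Of the upstream factors, which drive the promoters of immediate early genes, 9 of 17 were higher and 1 was lower with TD139 against vehicle, in a comparison with 33.4% of all tested genes called. The largest differences were those of Elk4 (1.70), Mef2a (1.39), Mef2d (1.15) and the coactivator Ep300 (1.08). Naïve mice alone lay far apart for Elk4 (1.77, 4.37 and 7.04 CPM) and Mef2a (10.6, 19.4 and 30.8 CPM). With the offset for transcript length and GC content, 20.6% of all tested genes were called in this comparison. The lists of this section were not read with that offset. After light 1 was higher and 1 lower. Elk3, which can repress such promoters, rose by 1.13 after light and fell by 0.89 with TD139, and Crtc2, a coactivator of CREB, fell by 0.39 after light. Of the kinases, 0 were called after light by edgeR (4 had an unadjusted p-value under 0.05). With TD139 6 kinases were higher and 3 lower, among them Rps6ka3 (0.73), Braf (0.70), Rps6ka5 (0.66) and Rps6ka1 (−0.66), while the most abundant kinases, Camk2b (−0.22) and Prkaca (−0.18), did not pass. Among AP-1 partners, Maf rose by 1.03 after light, and with TD139 Atf7 (1.15), Mafg (0.76) and Atf2 (0.39) were higher and Jdp2 (−0.37) was lower.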
